A study of Homo sapiens with 9 samples.

Results

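Rab GTPases are small membrane switches that carry GTP when active and GDP when inactive. Each one marks particular membranes, and in its active form it recruits the motors, tethers and coat proteins that bud, move and dock vesicles. Proteins with a TBC domain act as RabGAPs, which speed up GTP hydrolysis and so turn Rabs off. In neural cells the system is known for axonal transport, synaptic vesicle release, growth of neurites and traffic to the cilium.

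All array probes whose gene symbol is a numbered RAB gene, a numbered TBC1D gene or SGSM1, SGSM2 or SGSM3 were taken. These were 116 of the 42405 probes and they covered 95 genes, with 70 probes for 58 Rab genes and 46 probes for 37 TBC1D and SGSM genes, called RabGAPs here by their symbol. The rule used symbols alone and no measured value. SGSM2 is also among the genes the study listed from these arrays, so its values are no independent evidence of a direction.

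NT2 is a human embryonal carcinoma line that turns towards neurons in retinoic acid. All cells were seeded in serum medium and then kept for 4 days (96 h) in 10 μM retinoic acid, either with no organophosphate (control), with 1 μM paraoxon or with 5 μM mipafox, so the doses of the 2 compounds differed. Each treatment had 3 one-colour arrays, named A, B and C. The series' design text calls them biological replicates while the paper's methods describe technical ones, so the p-values measure the spread between these arrays. Mipafox A was hybridised on slide 1 with all controls, and mipafox B and C were on slide 2 with all paraoxon arrays. Slide and paraoxon treatment therefore cannot be told apart from the paraoxon and control arrays alone, and mipafox is the treatment measured on both slides. On slide 1 mipafox was measured by mipafox A alone. Values with the slide as a block, and differences between the mipafox slides, rest on that array. A slide difference and a deviation of mipafox A itself cannot be told apart in them.

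Between 69.6% and 76.6% of the spots of an array were well above background. Precision is limited by how many arrays there were. All 10 pluripotency markers examined, such as POU5F1 and NANOG, were well above background on all 9 arrays, and so were 6 of 7 neural progenitor markers, 5 of 7 neuronal markers and all 6 retinoic acid response genes. Markers of other cell types were measured too. On all 9 arrays 3 of 5 glial markers (S100B, OLIG2, MBP), 3 of 6 of mesoderm and fibroblasts (COL1A1, LUM, PDGFRB), 2 of 5 of endoderm (GATA6, FOXA2) and 2 of 5 of blood and endothelium (PTPRC, PECAM1) were well above background, while GFAP, T and HBB were so on none. Their part in the results was not tested. At an unadjusted p under 0.05 with paraoxon were 1 retinoic acid and 1 blood or endothelial marker, and with mipafox 1 neural progenitor, 1 neuronal and 1 retinoic acid marker, and none of the 10 pluripotency markers with either.

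Most of the Rab system was measurable. Of the 116 probes, 102 were well above background on all 9 arrays and none was saturated. A probe was tested if all arrays of 1 or more treatments measured it well above background, which held for 106 probes of 86 genes. The 9 genes with no tested probe were RAB19, RAB27B, RAB33B, RAB41, SGSM1, TBC1D21, TBC1D27, TBC1D28 and TBC1D30. RAB27B, a Rab of secretory granules, and TBC1D30, a RabGAP of the cilium base, were among the 6 probes well above background on no array.

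Levels are given as the log2 signal minus the 75th percentile of the array, so that 0 is the signal of a bright probe and each unit is a doubling. Levels of different probes are not comparable with each other, because probes differ in how strongly they bind.

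No Rab or RabGAP probe passed the threshold with either compound in the fit of all 9 arrays. Probes were called where the log2 fold change was beyond 1 and the adjusted p was below 0.05. With paraoxon 0 of 106 member probes were called, against 0 of 29134 probes tested on the array (0%). With mipafox 0 of 106 were called, with a background of 0%, and between paraoxon and mipafox 0 of 106 were called, again with a background of 0%. In limma's fit the smallest adjusted p of a member probe was 0.127 with paraoxon and 0.462 with mipafox.

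At an unadjusted p under 0.05, 6 of the 106 member probes were higher with paraoxon (5.66%) and 7 were lower (6.6%). The background over all tested probes was 7.31% higher and 6.02% lower, so the members lay near it. With mipafox 2 were higher (1.89%) and 1 was lower (0.943%), against 2.96% and 4% of all tested probes. Between paraoxon and mipafox 2 were higher in paraoxon (1.89%) and 4 were lower (3.77%), against 2.87% and 1.15%.

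Counting probes whose arrays did not overlap gave a similar picture. All 3 paraoxon arrays lay above all 3 control arrays for 10 member probes (9.43%, background 12.4%) and below them for 15 (14.2%, background 11.1%). All 3 mipafox arrays lay above control for 6 (5.66%, background 5.34%) and below for 7 (6.6%, background 6.46%).

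With paraoxon 3 of 106 member probes had a log2 fold change beyond 1, against 803 of all 29134 tested probes. The members thus lay near the background. With mipafox 2 of these 3 were beyond 1, against 333 of all tested probes. The 3 all carried TBC1D or SGSM symbols and all lay on chromosome 17, where 14 tested member probes lie. Their shared position was not tested. They were 1 of the 2 SGSM2 probes, 1 of the 3 TBC1D3B probes and the single TBC1D29 probe. On each of them the paraoxon arrays stood above the control arrays, mipafox A stood at or near the control level, and mipafox B and C stood nearer to paraoxon.

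SGSM2 encodes a small G protein signalling modulator, which binds RAP and RAB proteins through separate domains. Its 2 probes read different stretches of the gene on the hg19 build, and the first 30 of the 60 bases of each are shown because they gave different results.
SGSM2 A_33_P3333033, chr17:2277683-2277742, plus strand: taacatggcgaaaccctgtctttacaaaaa
SGSM2 A_24_P92256, chr17:2283828-2283887, plus strand: atgcttctcaggatgccaagaggcctagga
The array annotation ties the second probe to RefSeq and Ensembl transcripts of SGSM2. It ties the first to cDNA clones alone, with no RefSeq transcript.

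On the clone-based probe A_33_P3333033 the control arrays A, B and C read -0.42, -0.41 and -0.59. The paraoxon arrays read 0.97, 0.71 and 1.04, all above every control array. The mipafox arrays read -0.66, 0.99 and 0.31. Mipafox A was thus the lowest of all 9 arrays, while mipafox B and C lay above every control. The log2 fold change was 1.38 ± 0.34 (SE) for paraoxon over control, with an adjusted p of 0.127 in limma, and 0.69 for mipafox over control, with an adjusted p of 0.778.

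With the slide as a block the paraoxon difference at this probe was 0.07 ± 0.35 (SE). Within slide 2 the paraoxon mean exceeded the mean of mipafox B and C by 0.25, and within slide 1 mipafox A lay -0.18 from the control mean. The difference between the mipafox arrays of slide 2 and slide 1 was 1.31, close in size to the paraoxon difference.

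On the transcript-based SGSM2 probe A_24_P92256 the control arrays read -1.26, -1.55 and -1.56, the paraoxon arrays -1.43, -1.23 and -1.84, and the mipafox arrays -1.59, -1.62 and -1.49. The 3 treatments overlapped. The log2 fold change was -0.05 ± 0.18 (SE) with paraoxon and -0.11 with mipafox. The adjusted p was 0.951 and 0.967. Leaving out control A or paraoxon C turned the sign of the paraoxon difference at this probe, to 0.05 and 0.12.

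SGSM3, a relative of SGSM2, read 0.16, -0.08 and 0.03 on the control arrays. It read -0.24, -0.11 and -0.78 with paraoxon and 0.03, -0.32 and -0.12 with mipafox. The paraoxon arrays lay below all control arrays, by -0.42 ± 0.19 (SE) on the log2 scale, and the adjusted p was 0.4. Paraoxon C was the lowest of them, and with the slide as a block the paraoxon difference was -0.16 ± 0.34 (SE). The mipafox difference was -0.18 with an adjusted p of 0.934.

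TBC1D3B belongs to a family of nearly identical copies on chromosome 17, and the annotation ties 1 probe to transcripts of several copies. Signals of the family therefore cannot be assigned to 1 copy. The probes A_32_P24372 (TBC1D3B) and A_33_P3267230 (TBC1D3G) read stretches that share a run of 13 bases, marked by capitals. The first line gives bases 1 to 30 of its probe and the second gives bases 31 to 60.
TBC1D3B A_32_P24372, chr17:34493232-34493290, minus strand: tGTTAAACTTATGAgaatgtattaagaaag
TBC1D3G A_33_P3267230, chr17:34797383-34797442, minus strand: ttttatttttgGTTAAACTTATGAatatgt

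The TBC1D3B probe A_32_P24372 read -4.49, -4.65 and -4.92 on the control arrays and -3.25, -3.44 and -3.44 on the paraoxon arrays. The mipafox arrays read -4.51, -3.18 and -3.07. Again mipafox A lay within the control range, and mipafox B and C were the highest of all 9. The log2 fold change was 1.31 ± 0.34 (SE) with paraoxon, with an adjusted p of 0.139, and 1.1 with mipafox, with an adjusted p of 0.523. With the slide as a block the paraoxon difference was -0.08 ± 0.27 (SE), and within slide 2 it was -0.26 against mipafox B and C.

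The other 2 TBC1D3B probes showed no such difference, but neither was well above background on every array. A_33_P3388376 was so on 3 control, 2 paraoxon and 2 mipafox arrays. It passed the filter only through its control arrays, where it was high, so its p-values support nothing. A_33_P3275687 was so on 3 control, 2 paraoxon and 3 mipafox arrays. On A_33_P3388376 the differences were -0.52 ± 0.39 (SE) with paraoxon and -0.48 with mipafox, with adjusted p of 0.64 and 0.892. On A_33_P3275687 they were -0.16 ± 0.42 (SE) and 0.10, with adjusted p of 0.923 and 0.988. Both probes were low on paraoxon C, which read -7.47 and -6.88 while paraoxon A and B read -6.17 and -5.62 on the first and -5.17 and -5.33 on the second. Without paraoxon C the paraoxon differences were 0.01 and 0.38. TBC1D3G, whose probe shares the short run, differed by 0.22 with paraoxon and 0.41 with mipafox, with adjusted p of 0.691 and 0.75.

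TBC1D29 carries a TBC1D symbol on the array, and the current RefSeq table lists it as the transcribed pseudogene TBC1D29P. The first 30 bases of its probe are shown because it was the member with the highest fold change.
TBC1D29 A_24_P361427, chr17:28890360-28890419, plus strand: cggggagacaagggaatcagtgtctcatta
It was not well above background on any control array, was so on all 3 paraoxon arrays, and was so on 1 of 3 mipafox arrays. The control arrays read -7.39, -8.45 and -8.74, the paraoxon arrays -5.95, -6.16 and -5.37, and the mipafox arrays -8.45, -5.63 and -6.80.

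The probe passed the filter only through its paraoxon arrays, where it was high, so its p-values and calls support nothing. For a fold, each control array took the higher of its own reading and its lowest signal well above background. The paraoxon mean was then 4.41-fold the control mean. In limma's fit of the readings themselves the adjusted p was 0.151. The fold is not a lower limit, since an undetected probe can read above that lowest signal. Mipafox C read -6.80 here without being well above background, while the lowest such signal of its array was -7.72. Of the mipafox arrays only B was well above background, so no fold is given here for mipafox or between its arrays. Mipafox differences at this probe support nothing.

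**Figure D1:**
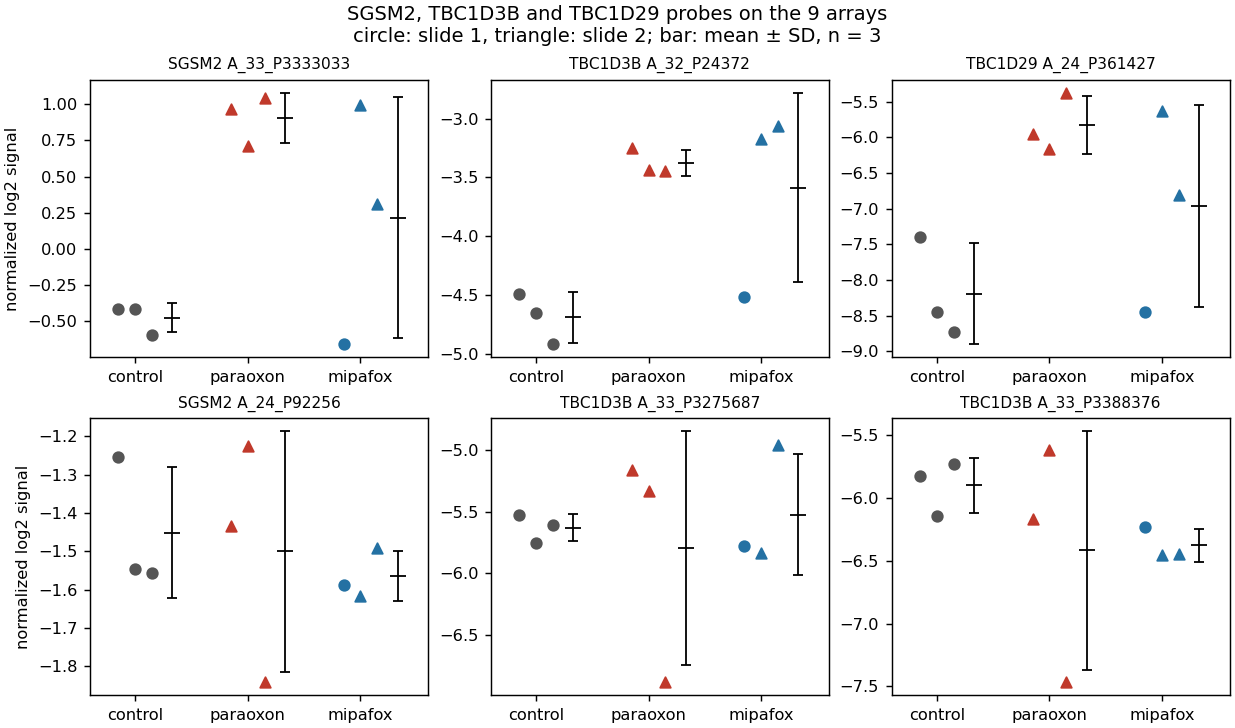
Normalized log2 signal (y axis, a separate scale in each panel) of the SGSM2, TBC1D3B and TBC1D29 probes on the control, paraoxon and mipafox arrays (x axis), with circles for slide 1, triangles for slide 2 and bars for mean ± SD, n = 3. In the top row the mipafox array of slide 1 sits with the control arrays and the 2 of slide 2 sit nearer to paraoxon. In the bottom row, with the other SGSM2 and TBC1D3B probes, the paraoxon and control arrays overlap at each probe. The mipafox arrays overlap the controls there too, except at TBC1D3B A_33_P3388376, where all 3 lie below them.

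These 3 probes were the ones called when the fit held only the control and paraoxon arrays. In that fit 3 of 106 member probes were called (2.83%), against 0.947% of all tested probes, with adjusted p of 0.0117 for SGSM2 and 0.0167 for TBC1D3B. TBC1D29 was the third, and the filter that let it in used the same arrays. Its call supports nothing, so the share of 2.83% includes a probe that the filter favoured. Leaving mipafox A out of the fit of all arrays also called these 3 with paraoxon (background 0.947%), and it called TBC1D3B alone with mipafox (background 0.261%). When arrays were weighted by their quality, the same 3 were called with paraoxon (2.83%, background 2.3%) and with mipafox (2.83%, background 2.75%). The calls of TBC1D29 in these fits support nothing either. Of its control and mipafox arrays only mipafox B was well above background. None of the 3 was called with the slide as a block.

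The slides can be set against each other on separate arrays, by paraoxon minus control and by mipafox B and C minus mipafox A. On slide 1 the second of these rests on mipafox A alone. These differences had the same sign for 59 of 106 member probes (55.7%), against 59.5% of all tested probes. The SGSM2 probe A_33_P3333033 and the TBC1D3B probe A_32_P24372 exceeded 1 in both. TBC1D29 did so too, but its readings on control and on mipafox A and C were not well above background. Its place here supports nothing. With it counted the members were 3 (2.83%), against 167 of all tested probes (0.573%). That member share therefore includes a probe that supports nothing. Across the 106 probes, TBC1D29 included, Pearson's r was 0.56 and Spearman's rho was 0.25. Without the SGSM2, TBC1D3B and TBC1D29 probes named here they were 0.23 and 0.18. Over all tested probes the values were 0.37 and 0.30. These describe probes on shared arrays, which are not independent replicates. Within slide 2, paraoxon and mipafox differed by more than 1 at 0 member probes.

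**Figure D2:**
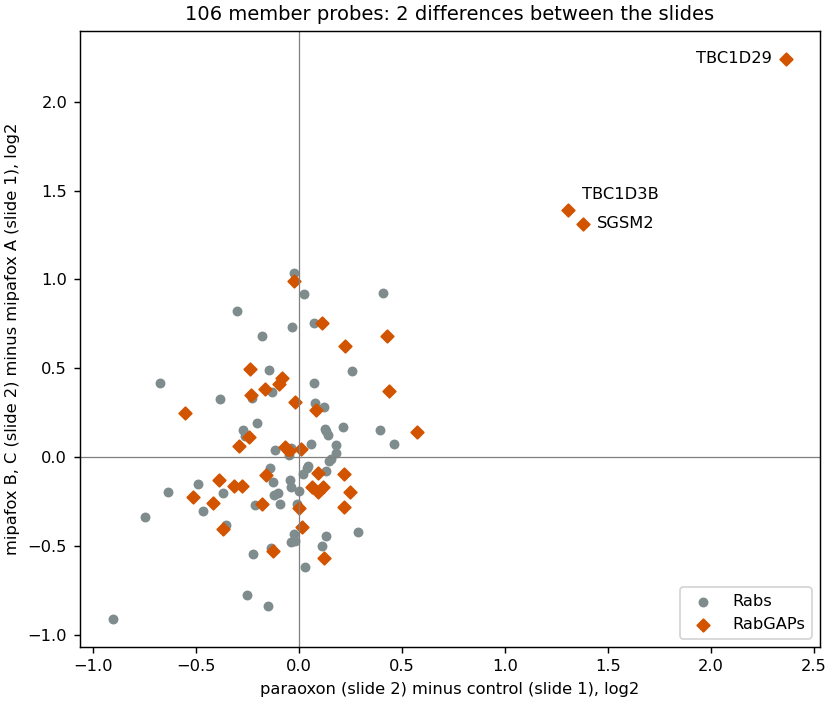
Each point is 1 of the 106 tested member probes, with paraoxon minus control on the x axis and mipafox B and C minus mipafox A on the y axis, both on the log2 scale and both comparing slide 2 with slide 1. The SGSM2, TBC1D3B and TBC1D29 probes lie above 1 on both axes and the remaining probes scatter around 0. TBC1D29 was not well above background on control or on mipafox A and C, so its position supports nothing.

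Among the other RabGAPs the differences were smaller. Without these 3 probes the 38 RabGAP probes ranged from -0.55 (TBC1D10B) to 0.57 (TBC1D1) with paraoxon, and 35 of them lay within 0.5 of 0. Their median was -0.04, against 0.01 for all tested probes. With mipafox all 38 lay within 0.5 and the median was -0.01. Of all 29134 tested probes 24491 lay within 0.5 with paraoxon and 26445 with mipafox.

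TBC1D1 is a RabGAP of glucose transporter traffic. Its probe A_33_P3370812, at chr4:37954280-37954339, also lists no RefSeq transcript, and with the SGSM2 probe it made up the tested members without one. It read -3.27, -3.36 and -3.58 on the control arrays, -2.83, -3.00 and -2.66 with paraoxon and -3.18, -2.74 and -3.34 with mipafox. All paraoxon arrays lay above all control arrays, by 0.57 ± 0.19 (SE), and the adjusted p was 0.224. The other 2 TBC1D1 probes differed by -0.29 and 0.12.

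TBC1D10B inactivates several Rabs at the cell surface. Its probe A_33_P3219197 read -2.92, -3.36 and -3.48 on the control arrays, -3.67, -3.55 and -4.20 with paraoxon and -3.78, -3.50 and -3.56 with mipafox. Both treated groups lay below all controls, by -0.55 with paraoxon (adjusted p of 0.305) and by -0.36 with mipafox (adjusted p of 0.822). The other TBC1D10B probe, A_23_P22382, lay the other way, at 0.22 ± 0.34 (SE) with paraoxon and 0.23 ± 0.34 (SE) with mipafox. TBC1D12, which is found with recycling endosomes, read -2.95, -2.56 and -2.71 on the control arrays and -2.41, -2.39 and -2.10 with paraoxon, a difference of 0.44 with an adjusted p of 0.311. Its mipafox arrays read -2.85, -2.47 and -2.48, and with the slide as a block the paraoxon difference was 0.07. A probe of TBC1D9 differed by -0.40 with mipafox, with an adjusted p of 0.792.

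**Figure D3:**
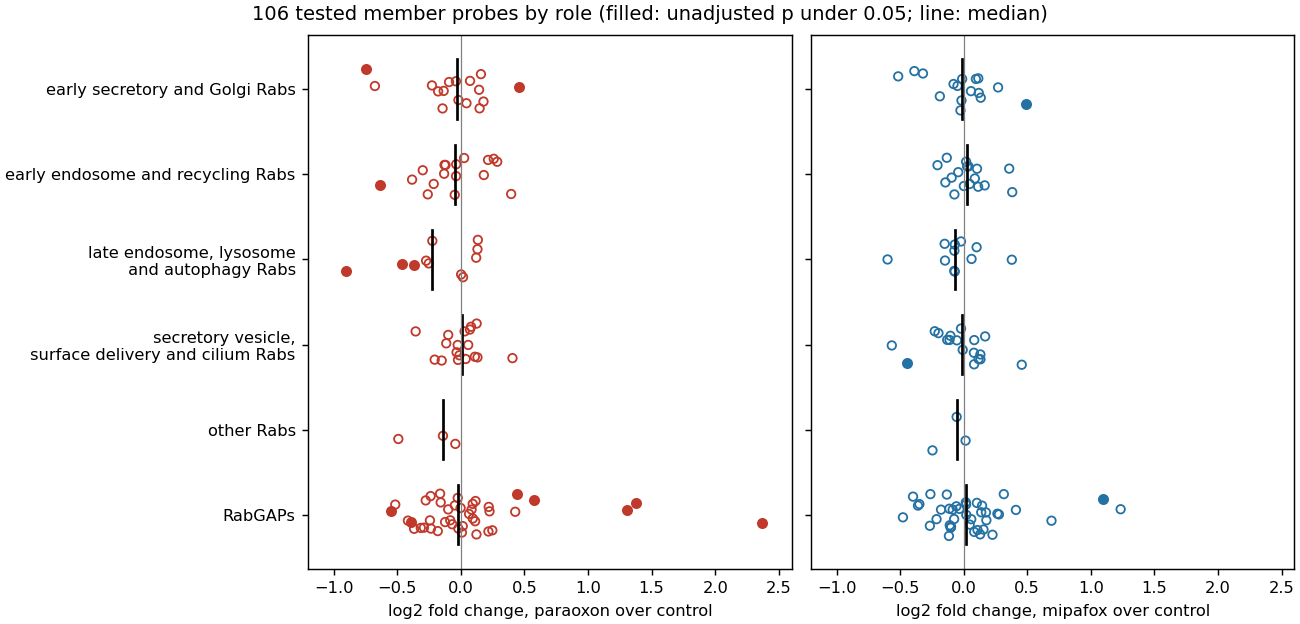
Log2 fold change over control (x axis) of each of the 106 tested member probes, by role (y axis), with paraoxon in the left panel and mipafox in the right. Filled points have an unadjusted p under 0.05 and black lines are medians, and the points beyond 1 all lie in the row of TBC1D and SGSM genes (RabGAPs), the TBC1D29 pseudogene included.

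No Rab probe reached a fold change of 1. The 65 tested Rab probes had a median difference of -0.04 with paraoxon, with 27 above 0 and 38 below, and of -0.02 with mipafox, with 30 above and 35 below. Over all tested probes the medians were 0.01 and 0.001. Within 0.5 of 0 lay 61 of the 65 probes with paraoxon and 62 with mipafox, against 24491 and 26445 of all 29134 tested probes.

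The Rabs of the early secretory pathway and Golgi, which carry cargo from the endoplasmic reticulum outward and back, had 16 tested probes with a median of -0.03 with paraoxon and -0.01 with mipafox. The lowest and highest of them with paraoxon were RAB30 and RAB6B.

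RAB6B is a Rab of retrograde Golgi traffic that is abundant in neurons. It read -1.25, -1.29 and -1.29 on the control arrays, a range under 0.1. It read -0.66, -1.03 and -0.76 with paraoxon and -0.84, -0.69 and -0.83 with mipafox. All 6 treated arrays lay above all 3 controls, mipafox A on slide 1 included. The log2 fold change was 0.46 ± 0.14 (SE) with paraoxon and 0.49 with mipafox, with adjusted p of 0.193 and 0.462. With the slide as a block the differences were 0.38 ± 0.25 (SE) and 0.44 ± 0.19 (SE), and within slide 1 mipafox A exceeded the control mean by 0.44.

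RAB30, which helps to keep the Golgi in order, read -4.07, -4.28 and -4.14 on the control arrays and -4.77, -4.57 and -5.39 with paraoxon. The mipafox arrays read -4.26, -4.57 and -4.62. The paraoxon arrays lay below every control by -0.75 ± 0.21 (SE) on average, with an adjusted p of 0.17. With the slide as a block the difference was -0.41. RAB43, another Golgi Rab, differed by 0.27 with mipafox and its mipafox arrays lay above all controls, with an adjusted p of 0.755.

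The early endosome and recycling Rabs, which sort what the cell takes up, had 17 tested probes with a median of -0.05 with paraoxon and 0.03 with mipafox. RAB17, a Rab of polarized recycling, had the lowest value. Its probe A_23_P5778 read -3.98, -4.13 and -4.04 on the control arrays and -4.27, -4.60 and -5.20 with paraoxon. The mipafox arrays, at -4.05, -4.23 and -4.27, overlapped the controls. The paraoxon difference was -0.64 ± 0.22 (SE), with an adjusted p of 0.249, and within slide 2 it was -0.44. The second RAB17 probe differed by -0.12.

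The Rabs of late endosomes, lysosomes and autophagy had 11 tested probes, and their median was -0.22 with paraoxon and -0.07 with mipafox. The paraoxon median was 0.0053 with the slide as a block. The 3 probes with an unadjusted p under 0.05 with paraoxon, all lower (background 6.02%), were both RAB12 probes and RAB7B, so they stand for 2 genes. RAB12 directs recycling cargo to lysosomes. Its probe A_24_P53353 read -2.57, -2.78 and -3.31 on the control arrays, -3.43, -4.23 and -3.72 with paraoxon and -2.88, -3.54 and -4.04 with mipafox. Mipafox A lay among the controls and mipafox B and C among the paraoxon arrays. The paraoxon difference was -0.90 ± 0.33 (SE), with an adjusted p of 0.273, and with the slide as a block it was 0.01.

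The second RAB12 probe, A_33_P3391211, read -0.39, -0.05 and -0.19 on the control arrays and -0.39, -0.64 and -0.98 with paraoxon. Its mipafox arrays, at -0.03, -0.23 and -0.42, overlapped the controls. The paraoxon difference was -0.46, with an adjusted p of 0.328, and -0.17 with the slide as a block. RAB39, a late endosomal Rab, differed by 0.38 with mipafox, with an adjusted p of 0.79.

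The Rabs of secretory vesicles, surface delivery and the cilium include the synaptic vesicle Rabs. Their 18 tested probes had a median of 0.01 with paraoxon and -0.01 with mipafox. All 18 lay within 0.5 with paraoxon, as did 24491 of all 29134 tested probes. RAB8B acts in delivery to the cell surface. It read -0.08, 0.22 and 0.30 on the control arrays, 0.16, 0.26 and 0.40 with paraoxon and -0.40, -0.35 and -0.14 with mipafox. All mipafox arrays, on both slides, lay below all control and all paraoxon arrays. The difference was -0.44 for mipafox over control, with an adjusted p of 0.578, and 0.12 for paraoxon over control, with an adjusted p of 0.807. The mipafox difference was -0.55 with the slide as a block. Between paraoxon and mipafox the difference was 0.57 ± 0.15 (SE) and was not called, with an adjusted p of 0.998 (0.843 with the slide as a block).

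RAB3C, a synaptic vesicle Rab, had 1 probe among the smallest p-values with mipafox. A_33_P3314559 read -3.66, -3.38 and -3.30 on the control arrays and -3.45, -4.00 and -4.58 with mipafox. The difference was -0.57 with an adjusted p of 0.794, and mipafox A lay among the controls. The second RAB3C probe, A_33_P3250939, differed by 0.08 with mipafox.

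**Figure D4:**
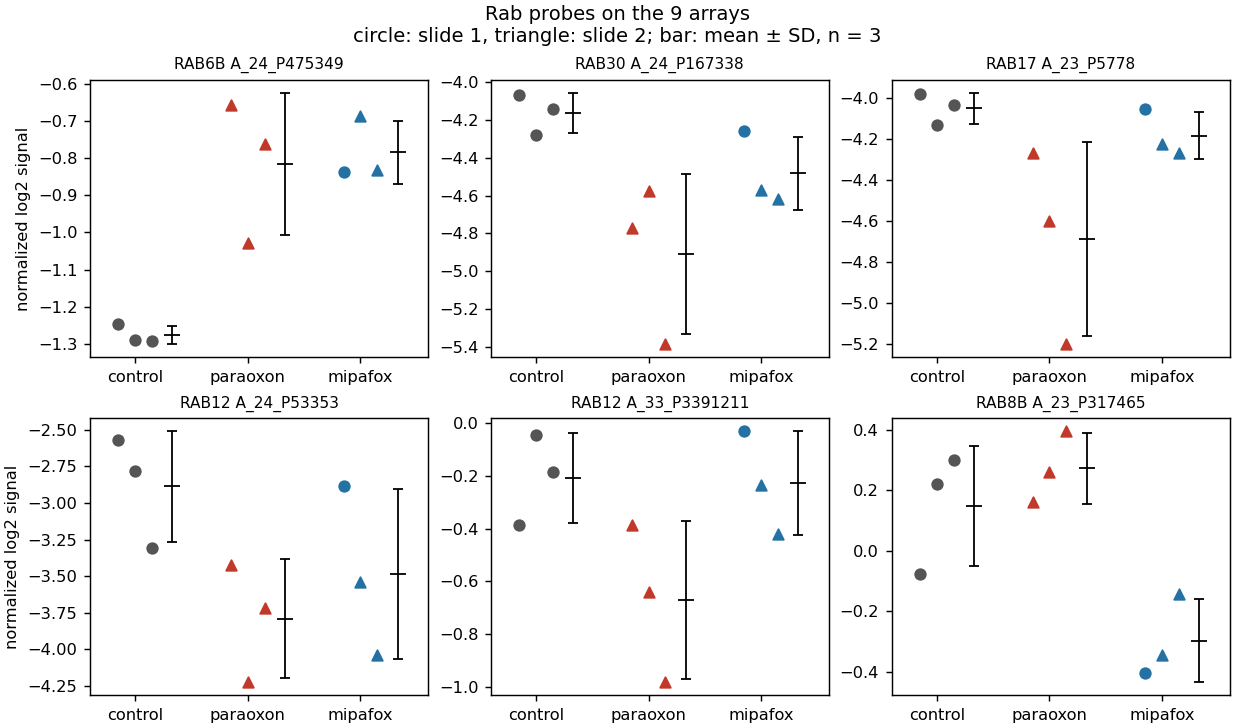
Normalized log2 signal (y axis, a separate scale in each panel) of the RAB6B, RAB30, RAB17, RAB12 and RAB8B probes on the control, paraoxon and mipafox arrays (x axis), with circles for slide 1, triangles for slide 2 and bars for mean ± SD, n = 3. All 6 treated arrays lie above control for RAB6B, and all 3 mipafox arrays, on both slides, lie below the rest for RAB8B.

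A list of 19 well-studied members was followed whatever its values, through the brightest tested probe of each. RAB27B and TBC1D30 had none. For the other 17 genes 0 had an unadjusted p under 0.05 with either compound, the smallest being 0.0869 in limma (RAB3A with mipafox). Over all tested probes the share was 13.3% with paraoxon and 6.96% with mipafox. At such shares a count of 0 among 17 genes says little. With paraoxon all 17 differences lay within 0.3 on the log2 scale, and with mipafox 16 did. The share of all tested probes within 0.3 was not computed.

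RAB1A, the Rab of transport from the endoplasmic reticulum to the Golgi, had a mean level of 4.18 ± 0.08 in control, 4.33 ± 0.13 with paraoxon and 4.30 ± 0.04 with mipafox (SD, n = 3). RAB5A, which governs early endosome fusion, had 2.32 ± 0.17, 2.50 ± 0.02 and 2.41 ± 0.03. RAB7A, its late endosomal counterpart, had 3.15 ± 0.11, 2.92 ± 0.30 and 3.08 ± 0.44. None of these 3 had an unadjusted p under 0.05 with either compound.

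RAB11A (recycling endosomes) had 0.51 ± 0.21 in control, 0.77 ± 0.25 with paraoxon and 0.56 ± 0.36 with mipafox. RAB10 (membrane delivery) had 3.14 ± 0.10, 3.18 ± 0.14 and 3.22 ± 0.14. RAB3A, the main Rab of synaptic vesicles, had -0.96 ± 0.17, -0.88 ± 0.48 and -0.51 ± 0.21. Its 3 mipafox arrays lay above all control arrays.

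RAB23, a cilium Rab that restrains hedgehog signalling, varied more between mipafox arrays than between treatments, with -0.76 ± 0.04 in control, -0.78 ± 0.32 with paraoxon and -0.86 ± 0.68 with mipafox. TBC1D4, a RabGAP of insulin-driven glucose transporter traffic, did the same, with -1.25 ± 0.13, -1.27 ± 0.19 and -1.35 ± 0.68. TBC1D24, a synaptic RabGAP-like protein linked to epilepsy, had -2.10 ± 0.04 in control, -2.37 ± 0.24 with paraoxon and -2.36 ± 0.14 with mipafox. All 6 of its treated arrays lay below all 3 controls.

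Different probes for 1 gene did not always move together. Of the 17 genes with more than 1 tested probe, the probes differed in sign with paraoxon for 8 and lay within 0.5 of each other for 11. They were more than 1 apart for 2, TBC1D3B (1.82) and SGSM2 (1.43). The lowest TBC1D3B probe, A_33_P3388376, passed the filter only through its control arrays. RAB1A, RAB2B, RAB37 and RAB3C had probes within 0.2 of each other with paraoxon. With mipafox the RAB3C probes were 0.65 apart and differed in sign.

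The proteins that work with Rabs also lay near the background. A list of 68 partner genes was followed, which covers GDP dissociation inhibitors and prenylation enzymes that shuttle Rabs, other RabGAPs, exchange factors that switch Rabs on, and effectors. Of these, 66 genes had 98 tested probes. With paraoxon 5 of the 98 were higher (5.1%, background 7.31%) and 7 lower (7.14%, background 6.02%) at an unadjusted p under 0.05. With mipafox 1 was higher (1.02%, background 2.96%) and 4 were lower (4.08%, background 4%). The smallest adjusted p was 0.101 and 0.426, and no partner probe differed by more than 1.

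MLPH (melanophilin), which links RAB27A to myosin on pigment granules, had the smallest p with paraoxon. It read -5.29, -5.12 and -5.29 on the control arrays and -4.53, -4.61 and -4.45 with paraoxon, a difference of 0.70 ± 0.16 (SE) with an adjusted p of 0.101 at A_33_P3414157. The second MLPH probe, A_23_P165783, lay the other way, at -0.48 ± 0.30 (SE) with an adjusted p of 0.563. The probes gave 0.52 and -1.44 with the slide as a block. MYO5A, the myosin of the same complex, differed by -0.84 with an adjusted p of 0.175, and by -0.35 with the slide as a block. RIMS2, a RAB3 effector of the presynaptic active zone, had the smallest p with mipafox, a difference of -0.97 with an adjusted p of 0.426 at A_24_P332816. Its second probe, A_23_P147786, differed by -0.06 with an adjusted p of 0.975. The 11 probes for GDP dissociation inhibitors and prenylation had a median of 0.01 with paraoxon and -0.07 with mipafox, and none had an unadjusted p under 0.05.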

How the data were processed

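RNA of NT2 cells was measured on 9 one-colour Agilent arrays, 3 per treatment. The authors deposited scanner output of Agilent Feature Extraction 10.5.1.1 holding linear intensity values, and log2 values that the authors had processed with a Bioconductor package. For the present work log2 of the processed signal was scaled to each array's 75th percentile. Spots were averaged by probe, after removal of controls and flagged outliers. Probes were tested if all arrays of 1 or more treatments were well above background and each treatment had 2 or more values, which left 29134. The model in limma 3.58.1 (R 4.3.3) fitted 9 arrays with a mean for each treatment, and p-values were adjusted by Benjamini-Hochberg over all these probes. On simulated arrays without a slide difference with paraoxon it called 176 of 200 probes given a log2 change of 2, and 3 of the unchanged ones.

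The members and lists were chosen with earlier results of these data known. Text names every SGSM probe, the 10 member probes with the smallest p in each comparison with control, genes whose probes differ by more than 1, and the fixed list of 19 genes. TBC1D3G with paraoxon, the second RAB12, RAB17 and TBC1D10B probes and partner genes were named after their values were seen. Of 95 symbols 92 were in the RefSeq table. Coordinates are those of the array annotation (hg19), and exon or UTR status was not analysed here. Alternatives were other background corrections, normalizations, filters and fits, slide as a block, and each array left out. Figures were drawn with matplotlib 3.10.9.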

Additional observations from a re-analysis of the deposited data

How the results depend on the processing

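No member probe was called in any of the 3 comparisons under other normalizations, background corrections, filters on dim probes, 1 probe per gene, no fold limit, or the slide as a block. With paraoxon 3 were called when the fit held only those arrays and their controls, and 3 with array weights, and leaving out 1 array gave 0 to 3, the 3 without mipafox A. With mipafox 3 were called with array weights, and leaving out 1 array gave 0 to 1, the 1 without mipafox A. Each count of 3 includes TBC1D29, whose calls support nothing. At an unadjusted p under 0.05 (share of all probes in that fit in parentheses), the 13 members with paraoxon (13.3%) became 20 with the authors' processed values (16.5%), 8 with the slide as a block (8.02%), 24 with array weights (29.9%) and 8 to 15 when 1 array was left out. The 3 with mipafox (6.96%) became 5 with quantile normalization (8%), 9 with the authors' values (9.19%), 6 with the slide as a block (5.48%), 5 with the arrays of the 2 treatments (6.95%), 28 with array weights (37.2%) and 2 to 10 when 1 array was left out. The 6 between paraoxon and mipafox (4.02%) became 2 with no filter (3.06%), 10 with the slide as a block (5.38%), 3 with the arrays of the 2 treatments (2.74%), 15 with array weights (14.4%) and 2 to 10 when 1 array was left out. On slide 2 alone, chosen after seeing the data, they were 8 (3.25%). When 1 array was left out, the share of all probes ran from 9.2% to 15.3% with paraoxon and from 3.76% to 12.7% with mipafox. Between paraoxon and mipafox it ran from 2.85% to 6.18%. The cause was not tested.

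The median of the Rab probes with paraoxon was -0.0039 with normexp, -0.0299 with the authors' values, -0.0295 with no filter, 0.0092 with the slide as a block, -0.0193 with array weights and -0.0373 to -0.0302 when 1 array was left out. With mipafox it was 0.039 with the slide as a block. The RabGAP median with mipafox was 0.079 with normexp and -0.049 with the slide as a block.

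Of 28 probe differences followed, 10 changed sign under some alternative. With the slide as a block the paraoxon difference was -0.0842 for TBC1D3B A_32_P24372 and 0.0053 for RAB12 A_24_P53353. The mipafox difference in that fit was -0.18 for SGSM2 A_33_P3333033, -0.0075 for TBC1D3G and -0.15 for TBC1D3B A_33_P3275687. For TBC1D29 it was -0.26, which compares mipafox A with the controls. None of these arrays was well above background at that probe, so this sign change supports nothing. The paraoxon difference of SGSM2 A_24_P92256 was 0.0956 with array weights and -0.185 to 0.123 when 1 array was left out, the latter without paraoxon C. That of TBC1D3B A_33_P3275687 was 0.0825 with normexp, 0.35 with array weights and -0.477 to 0.381 when 1 array was left out. With mipafox it was -0.0627 with array weights and -0.178 to 0.257 when 1 array was left out. TBC1D3B A_33_P3388376 gave 0.0681 with normexp, 0.0083 with the authors' values and -0.916 to 0.0084 when 1 array was left out for paraoxon, and 0.11 with normexp for mipafox.

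The deviations of the arrays gave no clear pairing by the letters A, B and C. Of 9 pairs of arrays with 1 letter, 4 deviated in opposite directions. The r of these pairs ran from -0.60 (paraoxon B and mipafox B) to 0.57 (control C and mipafox C). Pairs with different letters reached 0.66 (paraoxon B and mipafox C). Whether a letter marks a shared culture or preparation cannot be told from these values. With the letter as a replicate block 0 members were called in each comparison, with a background of 0%. At an unadjusted p under 0.05 in that fit were 13 members with paraoxon (background 12.5%), 4 with mipafox (background 6.53%) and 4 between them (background 3.6%).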

Other observations

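Some members differed more between arrays of 1 treatment than between treatments. Values were seen before these were picked. The TBC1D10B probe A_23_P22382 lay at 1 of 2 levels, between 3.37 and 3.54 on control A, paraoxon A, paraoxon C, mipafox A and mipafox B, and between 2.57 and 2.80 on control B, control C, paraoxon B and mipafox C. Each treatment and each slide held arrays of both levels. The RAB28 probe A_33_P3349325 was highest on control C (-0.77), paraoxon B (-0.61) and mipafox C (-0.49), and read between -1.85 and -1.26 on the other arrays. These 3 arrays were also at the lower TBC1D10B level. Over all tested probes their deviations had r of 0.66 (control C and paraoxon B), 0.66 (paraoxon B and mipafox C) and 0.57 (control C and mipafox C). Such a pattern is therefore not particular to these members, and its cause was not tested. Over the 106 tested member probes the SD within a treatment had a median of 0.217 on the log2 scale, against 0.25 for all tested probes, and the paraoxon difference exceeded that SD for 42 member probes (39.6%) against 38.6% of all tested probes, and the mipafox difference for 28 (26.4%) against 29.7%.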
